A study of Saccharomyces cerevisiae with 6 samples.

Results

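The 42 features described here are mRNA names of at least 1000 bases from a yeast RNA sequencing series on autophagy. Their normalized counts were far higher after nitrogen starvation than in every other library. They were chosen on the deposited normalized counts: the lower of the nitrogen libraries had to reach 20 and to be at least 8 times the highest of the potassium and control libraries. Of 7127 features in the deposited files, 3488 were mRNA features of this length, 3343 of them were in the normalized table, and 42 met the rule. PRR2 and SNX41 met the same numbers and are left out by name, because reads under those names are likely to lie opposite the gene. Because the nitrogen values chose the features, everything said below about nitrogen starvation against the other groups is a description, with no test.

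All 6 libraries came from Saccharomyces cerevisiae BY4741, a haploid laboratory strain that lacks HIS3, LEU2, MET17 and URA3, grown to log phase in synthetic complete medium. There were 2 libraries of cells starved for nitrogen for 1 h, 2 of cells starved for potassium for 1 h and 2 of control cells that went on growing untreated for 1 h. Each group had 1 library in each of 2 labelled batches; the labels do not say whether the batches were separate cultures, so the spread between libraries may be technical. Counted reads per library were 357835 and 374244 after nitrogen starvation, 359353 and 402341 after potassium starvation, and 425923 and 418009 in control cells.

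Yeast cells that run out of nitrogen lose signalling through the TOR kinase, turn on autophagy, and release nitrogen catabolite repression, so that GATA-type activators switch on genes for the uptake and breakdown of poor nitrogen sources. GATAAG is the core sequence these activators recognise. Potassium is the main cation of the cell, and its loss is a different stress that was set beside nitrogen loss here.

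The values are reads counted under a feature's name, and they are not taken as the level of the named gene's message. The library kit keeps strand information, and how the counting treated strand is not given in the sources used here. CDC19, GPM1 and PGK1, genes of glycolysis that growing yeast transcribes strongly, averaged 10.3, 9.5 and 12.2 reads per library under their own names. There were 346 pairs of a feature absent from the annotation and the annotated gene it lies opposite. In 325 of them the feature and gene together averaged at least 20 reads per library. The unannotated feature held more reads per base in 311 of these 325 (95.7%). Features absent from the annotation held 30.2% to 67.0% of the reads of a library, with 32.4% and 30.2% after nitrogen starvation, 55.9% and 48.2% after potassium starvation, and 67.0% and 62.8% in control cells. None of the 42 features overlaps an annotated gene on the other strand, and which strand their reads came from was not tested. LEU2, MET17 and URA3 had 0 reads in every library and HIS3 at most 7, which says little about the strain label where own-name reads are this scarce.

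Taken as a set, the 42 names held 11857 and 11450 reads in the nitrogen libraries, 273 and 98 reads in the potassium libraries, and 142 and 119 reads in the control libraries. As shares of all reads these were 3.31% (95% Wilson interval 3.26 to 3.37) and 3.06% (3.005 to 3.12) after nitrogen starvation. They were 0.076% (0.0675 to 0.0855) and 0.0244% (0.02 to 0.0297) after potassium starvation, and 0.0333% (0.0283 to 0.0393) and 0.0285% (0.0238 to 0.0341) in control cells. The intervals cover counting error only, since reads without molecular identifiers are not independent molecules. The reads were unevenly spread: the leading 2 features took 33.1% and the leading 6 took 57.5% of them in the nitrogen libraries. Outside nitrogen starvation, 36 of the 42 had no more than 10 reads in any library, so each of their lower values rests on few reads.

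**Figure D1:**
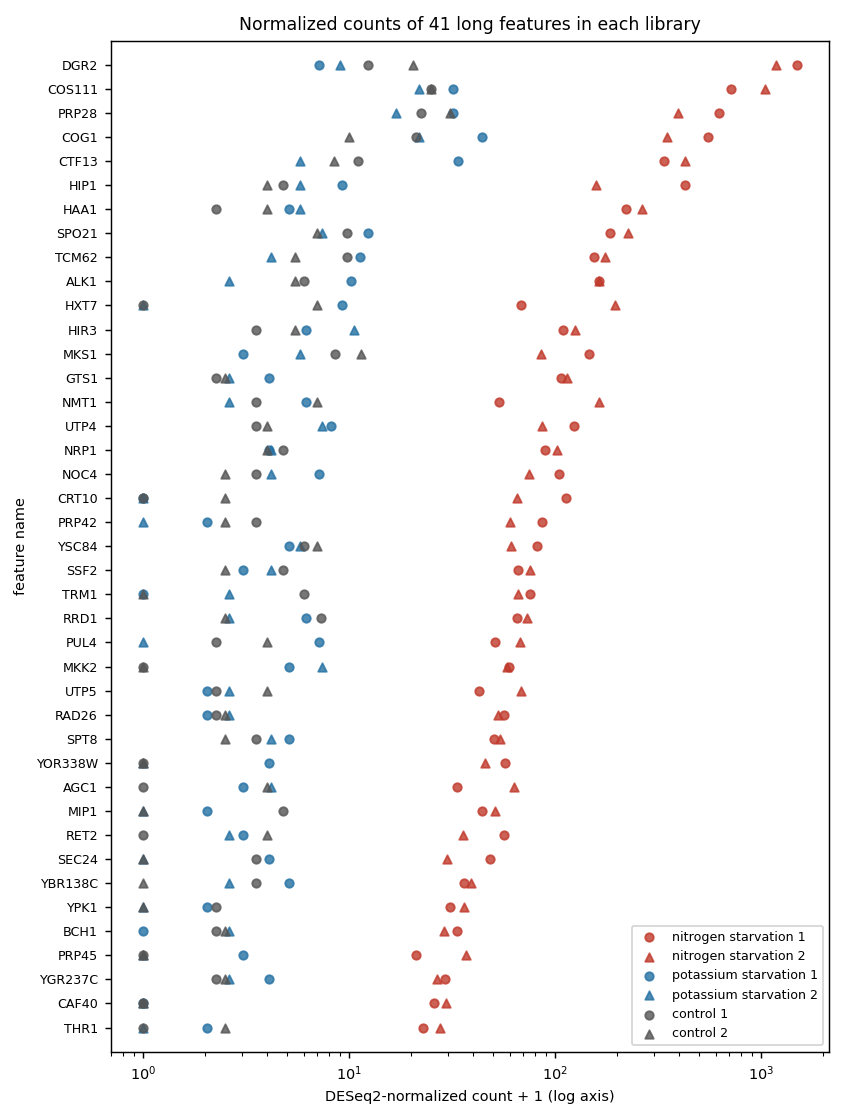
DESeq2-normalized count + 1 (log axis) of 41 of the 42 features in each of the 6 libraries, with features in order of their mean after nitrogen starvation. The nitrogen points (red) lie to the right of the potassium (blue) and control (grey) points for every feature drawn, as the rule requires, and run from 20.18 to 1483.8 before the 1 is added.

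Normalized counts, which divide the reads of a library by its size factor, covered a wide range. The mean over the nitrogen libraries ran from 24.27 for THR1 to 1331 for DGR2, with a median of 69.9. Per length, the nitrogen mean ran from 6.5 to 295 TPM, with a median of 25.8 TPM. The size factors were 1.73 and 1.76 for the nitrogen libraries, 0.974 and 0.627 for the potassium libraries, and 0.797 and 0.671 for the control libraries, although the nitrogen libraries had no more reads in all. A comparison of raw reads therefore gives larger ratios than normalized counts do.

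DGR2 (YKL121W, chrXI:214142-216700, plus strand), named for a screen with a glucose analogue and without an assigned role here, led the set. It had 2574 and 2077 reads after nitrogen starvation, 6 and 5 reads after potassium starvation, and 9 and 13 reads in control cells. The nitrogen libraries stood far above the other 4, at 1331 ± 217 normalized counts (SD, n = 2) and 295 TPM, the highest level per length in the set. Pooled reads per effective library size were 166 times (95% counting interval 92.7 to 333) those of the potassium libraries and 75.5 times (49.8 to 121) those of the control libraries. COS111 (YBR203W, chrII:629168-631942, plus strand), named for sensitivity to an antifungal drug, had 1235 and 1828 reads after nitrogen starvation, 30 and 13 after potassium starvation, and 19 and 16 in control cells. It was next by normalized count, at 874 ± 229 (SD, n = 2), stood at 174 TPM, and its potassium and control libraries overlapped. The other features with no role assigned here, YOR338W, YBR138C and YGR237C, had 45 to 97 reads in each nitrogen library and at most 4 in any other.

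Promoter sequences of 3 features are shown because 2 of them, YPK1 and MIP1, are the only ones of the 42 with GATAAG near the start of the gene, and DGR2 is the feature with most reads. The windows run from 250 bases before the start codon to 50 bases from it and were read from the NCBI RefSeq genome of build R64, 5′ to 3′ on the gene's strand. Capitals mark GATAAG or its reverse complement CTTATC. The windows are chrXI:205457-205756 on the plus strand for YPK1, chrXV:943336-943635 on the minus strand for MIP1, and chrXI:213892-214191 on the plus strand for DGR2.
YPK1: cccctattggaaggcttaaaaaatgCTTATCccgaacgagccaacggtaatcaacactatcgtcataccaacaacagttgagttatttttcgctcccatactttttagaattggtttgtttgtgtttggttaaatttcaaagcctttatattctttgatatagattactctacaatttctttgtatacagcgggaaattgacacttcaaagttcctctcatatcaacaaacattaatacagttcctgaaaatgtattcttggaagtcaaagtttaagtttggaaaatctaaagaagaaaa
MIP1: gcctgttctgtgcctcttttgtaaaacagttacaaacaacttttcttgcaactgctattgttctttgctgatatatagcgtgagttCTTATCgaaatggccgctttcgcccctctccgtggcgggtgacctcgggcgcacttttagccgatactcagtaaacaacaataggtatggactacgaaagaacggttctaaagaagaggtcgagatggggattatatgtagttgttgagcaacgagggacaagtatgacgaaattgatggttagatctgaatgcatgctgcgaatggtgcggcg
DGR2: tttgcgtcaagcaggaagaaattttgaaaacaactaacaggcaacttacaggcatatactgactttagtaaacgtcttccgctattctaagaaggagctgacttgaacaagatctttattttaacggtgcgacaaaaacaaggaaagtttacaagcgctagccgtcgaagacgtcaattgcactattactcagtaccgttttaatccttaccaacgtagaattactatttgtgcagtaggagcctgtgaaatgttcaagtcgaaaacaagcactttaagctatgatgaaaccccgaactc
The match starts at position -225 from the start codon in YPK1 and at -164 in MIP1, in the reverse orientation in both, and the DGR2 window holds none.

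Searching both strands for GATAAG, 2 of 42 promoter windows (4.8%) held a match, against 15.1% of 3444 windows of other features of at least 1000 bases and 14.8% of 5916 annotated mRNA features. Windows of the same length around the stop codon were also read, from the strand opposite the gene. Here 5 of 42 (11.9%) held a match, under the names RET2, HIP1, YGR237C, HIR3 and YOR338W, against 12.2% of other long features and 12.5% of all. Within the coding region, 54.8% of the 42 and 60.2% of other long features held the motif, with medians of 0.43 and 0.47 matches per kilobase. These shares are descriptions of letters in fixed windows.

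YPK1, a protein kinase of membrane and sphingolipid homeostasis, had 52 and 62 reads after nitrogen starvation, 1 and 0 after potassium starvation, and 1 and 0 in control cells. MIP1, the DNA polymerase of mitochondria, had 75 and 88 reads after nitrogen starvation, 1 and 0 after potassium starvation, and 3 and 0 in control cells. A feature absent from the annotation, YOR331C (chrXV:943565-944122, minus strand), overlaps the MIP1 promoter window on the same strand. It had 3340 and 3081 reads after nitrogen starvation, 2388 and 2016 after potassium starvation, and 2308 and 2250 in control cells. It was abundant in all 6 libraries. YOR331C also overlaps VMA4 (chrXV:943656-944357), which lies on the plus strand. VMA4 had 8 and 7 reads after nitrogen starvation, 8 and 3 after potassium starvation, and 6 and 5 in control cells. Which strand the YOR331C reads came from was not tested.

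Nutrient uptake was represented by HIP1 and HXT7. HIP1 (YGR191W, chrVII:880420-882231, plus strand), the histidine permease, had 741 and 276 reads after nitrogen starvation, 8 and 3 after potassium starvation, and 3 and 2 in control cells. Its nitrogen mean was 292 ± 191 normalized counts (SD, n = 2), and the first library was at 2.73 times the second. An unannotated feature, YGR190C (chrVII:880296-880661, minus strand), lies opposite the start of HIP1 over 242 bases. It had 194 and 262 reads after nitrogen starvation, 157 and 171 after potassium starvation, and 288 and 298 in control cells, a pattern that HIP1 did not share. HXT7 (YDR342C, chrIV:1154216-1155928, minus strand), a high-affinity glucose transporter, had 116.9 and 341.6 estimated reads after nitrogen starvation, 8.4 and 0 after potassium starvation, and 0 and 4 in control cells. Its values are uncertain, because it shares reads with its near-identical copy HXT6, the only such case among the 42. HXT6 had 134 and 0 estimated reads after nitrogen starvation, 0 and 10 after potassium starvation, and 14.7 and 0 in control cells. The 0 values of HXT7, in the first control and second potassium libraries, thus lay where HXT6 had reads. Divided by the size factors, the summed reads of HXT6 and HXT7 in the first nitrogen library fall just short of 8 times those in the first control library. The sum thus does not meet the rule, and the place of HXT7 among the 42 depends on how reads were split.

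Splicing factors made up 3 of the 42. PRP28 (YDR243C, chrIV:948518-950284, minus strand), an RNA helicase of the spliceosome, had 1078 and 692 reads after nitrogen starvation, 30 and 10 after potassium starvation, and 17 and 20 in control cells. Its control libraries lay between its potassium libraries. PRP42, a component of the particle that recognises the start of introns, had 148 and 104 reads after nitrogen starvation, 1 and 0 after potassium starvation, and 2 and 1 in control cells. PRP45, a spliceosome factor related to human SKIP, had 35 and 63 reads after nitrogen starvation, 2 and 0 after potassium starvation, and 0 in both controls. Its mean nitrogen level was at least 5.82-fold higher than in control cells, taking a floor of 3 reads per library for the controls.

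Ribosome assembly and RNA handling added 7 names. UTP4, UTP5 and NOC4 act in small-subunit assembly in the nucleolus, and SSF2 in large-subunit assembly. UTP4 had 212 and 150 reads after nitrogen starvation, 7 and 4 after potassium starvation, and 2 and 2 in control cells. UTP5 had 72 and 118 reads after nitrogen starvation, 1 and 1 after potassium starvation, and 1 and 2 in control cells. NOC4 had 180 and 129 reads after nitrogen starvation, 6 and 2 after potassium starvation, and 2 and 1 in control cells. SSF2 had 113 and 131 reads after nitrogen starvation and at most 3 in any other library, so all 4 names were low in both other groups. TRM1, a transfer RNA methyltransferase, and NRP1, a putative RNA-binding protein, had 114 to 179 reads in each nitrogen library and at most 4 elsewhere. CAF40, a subunit of the CCR4-NOT complex that shortens poly(A) tails, was the only feature with no read outside nitrogen starvation: it had 43 and 50 reads in the nitrogen libraries and 0 in the other 4. That is at least 5.81-fold higher than after potassium starvation and at least 5.5-fold higher than in control cells, with the same floor.

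Genes that act on chromosomes and DNA formed another group. CTF13 (YMR094W, chrXIII:455825-457261, plus strand), a kinetochore subunit that binds centromeres, had 585 and 752 reads after nitrogen starvation, 32 and 3 after potassium starvation, and 8 and 5 in control cells. The first potassium library was well above the second for CTF13, which lay below both controls. ALK1 (YGL021W, chrVII:454785-457067, plus strand), a haspin-like kinase of mitosis, had 280 and 285 reads after nitrogen starvation, 9 and 1 after potassium starvation, and 4 and 3 in control cells. Its normalized counts were nearly equal in the nitrogen libraries, at 161 ± 0.09 (SD, n = 2). HIR3 (YJR140C, chrX:690750-695696, minus strand), a subunit of a histone gene repressor complex, had 187 and 219 reads after nitrogen starvation, 5 and 6 after potassium starvation, and 2 and 3 in control cells. HIR3 is the longest of the set at 4947 bases, and it stood at place 35 of the 42 when ranked per length, at 12.5 TPM.

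RAD26 (YJR035W, chrX:497355-500612, plus strand), which acts in transcription-coupled repair, had 96 and 91 reads after nitrogen starvation and 1 in each of the other 4 libraries. SPT8, a subunit of the SAGA coactivator, had 86 and 93 reads after nitrogen starvation and at most 4 in any other library.

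Vesicle traffic and actin were covered by COG1, SEC24, RET2, BCH1 and YSC84. COG1 (YGL223C, chrVII:79112-80365, minus strand), of the Golgi tethering complex, had 958 and 612 reads after nitrogen starvation, 42 and 13 after potassium starvation, and 16 and 6 in control cells. Per length it was second, at 230 TPM, and its pooled nitrogen reads were 11.2 times (8.57 to 14.9) those after potassium starvation and 25.5 times (16.8 to 40.8) those in control cells. SEC24 (YIL109C, chrIX:157385-160165, minus strand), the cargo-binding subunit of the COPII coat, had 82 and 51 reads after nitrogen starvation, 3 and 0 after potassium starvation, and 2 and 0 in control cells. RET2, a COPI coat subunit, BCH1, of the exomer coat, and YSC84, an actin-binding protein of endocytosis, had 49 to 139 reads in each nitrogen library and at most 4 in any other.

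Among regulators of transcription, HAA1 (YPR008W, chrXVI:573018-575102, plus strand), the activator of the weak acid response, had 379 and 463 reads after nitrogen starvation, 4 and 3 after potassium starvation, and 1 and 2 in control cells. With only 3 reads in the controls together, the ratio to control cells was 100 with a wide counting interval of 34.2 to 487. CRT10, linked to the control of ribonucleotide reductase genes, had 193 and 113 reads after nitrogen starvation, 0 in both potassium libraries, and 0 and 1 in control cells, and was at least 18.97-fold higher than after potassium starvation. PUL4, a putative transcription factor, had 87 and 117 reads after nitrogen starvation and at most 6 in any other library. SPO21 (YOL091W, chrXV:145334-147163, plus strand), a spindle pole body protein that sporulating cells need to build spore membranes, had 319 and 396 reads after nitrogen starvation, 11 and 4 after potassium starvation, and 7 and 4 in control cells.

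Signalling and protein modification gave 6 names, among them MKK2 (YPL140C, chrXVI:287514-289034, minus strand), the MAP kinase kinase of the cell wall integrity pathway. MKK2 had 102 and 101 reads after nitrogen starvation, 4 and 4 after potassium starvation, and 0 in both controls. MKS1, a repressor of mitochondria-to-nucleus signalling, GTS1, linked to metabolic oscillations, RRD1, a phosphatase activator, and NMT1, the enzyme that attaches myristate to proteins, had 91 to 285 reads in each nitrogen library. They had at most 7 in any other. TCM62 (YBR044C, chrII:324341-326059, minus strand), a chaperone for assembly of succinate dehydrogenase, had 265 and 306 reads after nitrogen starvation, 10 and 2 after potassium starvation, and 7 and 3 in control cells. AGC1, the aspartate-glutamate carrier of mitochondria, had 56 and 110 reads after nitrogen starvation and at most 2 elsewhere. THR1 (YHR025W, chrVIII:159438-160511, plus strand), the homoserine kinase of threonine synthesis and the shortest feature at 1074 bases, had 38 and 47 reads after nitrogen starvation, 1 and 0 after potassium starvation, and 0 and 1 in control cells.

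In the fit across all 2325 features tested (edgeR's quasi-likelihood test with Benjamini-Hochberg adjustment over all of them), the 42 had a median log2 fold change of 4.75 for nitrogen starvation against control cells, beside 0.28 over all features tested. It was 4.53 with the 5 features that had 0 reads in both controls (among them PRP45, CAF40, YOR338W and MKK2) set at their lower bounds. Against potassium starvation the median was 4.49, beside 0.17 over all. All 42 entered the fit and were called higher in both comparisons, where 25.8% of features were called higher against control cells and 23.3% against potassium starvation. That count follows from the rule and supports nothing. Scaled by library size alone, the median of all features rose by 1.72 on the log2 scale against control cells, and calls split 1458 higher to 115 lower in place of 601 to 474.

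**Figure D2:**
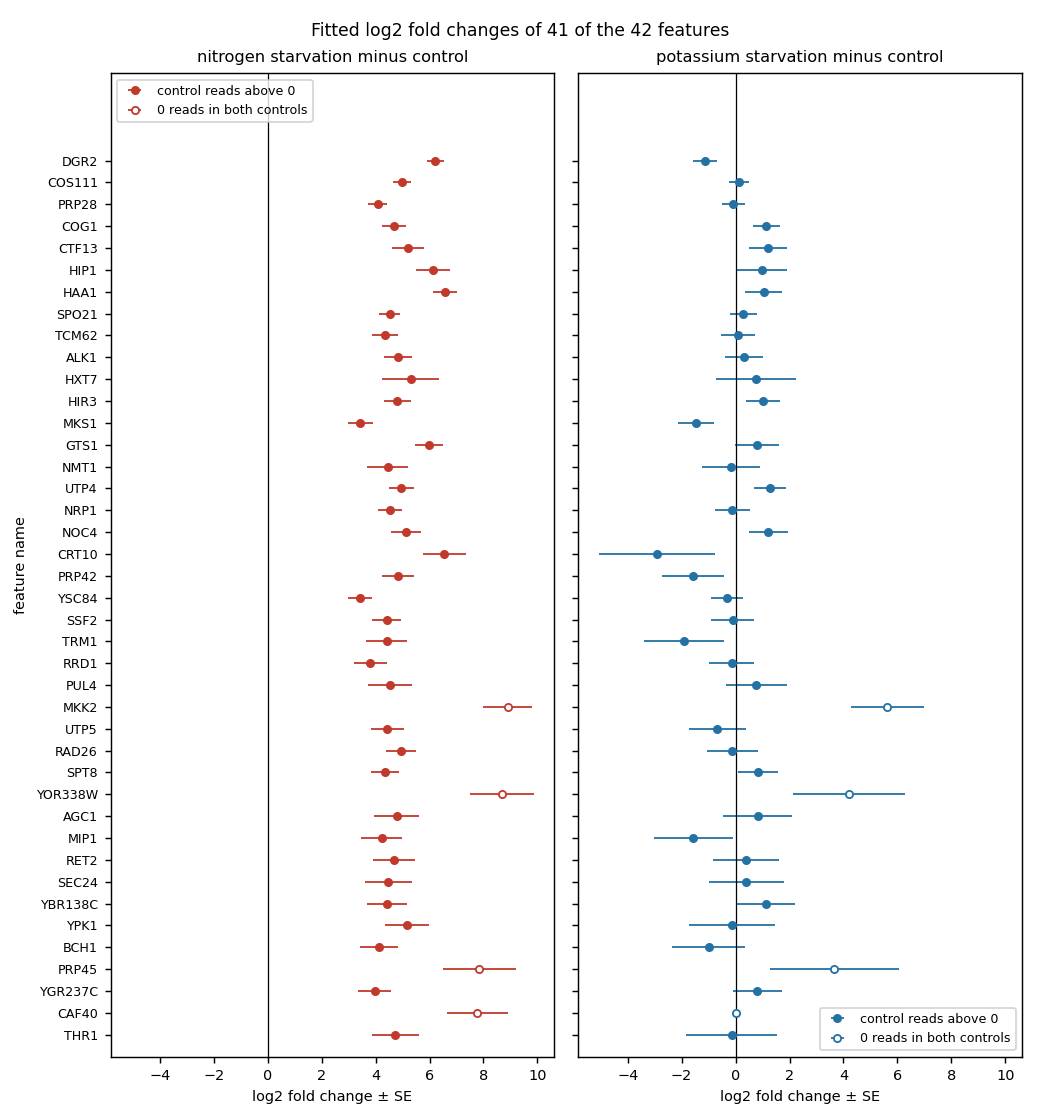
Fitted log2 fold change ± SE of 41 of the 42 features for nitrogen starvation minus control (left) and potassium starvation minus control (right), features ordered as in the plot of normalized counts. Open circles had 0 reads in both controls and their fitted values are not bounds; CAF40 sits at 0 on the right because it had no read in any of those 4 libraries. The left values run from 3.42 to 8.89 and the right values from -2.92 to 5.62. The lowest right value, CRT10, is a filled circle that rests on 0 reads after potassium starvation and 1 in control cells.

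Potassium starvation against control cells is the only comparison the ratio in the rule did not set, although the rule caps both groups. Most of the 42 entered this test only through their nitrogen reads: with the nitrogen libraries left out of the fit, 3 of them (COS111, PRP28 and COG1) passed the filter on low counts. None of those 3 was called there, at log2 fold changes of 0.23 (SE 0.40), 0.015 (SE 0.45) and 1.23 (SE 0.56) with adjusted p of 0.736, 0.987 and 0.177 by edgeR. The values below for the others, MKK2, DGR2 and CTF13 included, rest on counts under that filter, and the number called among the 42 is given as a description. In the fit of all libraries 1 of 42 features, MKK2, was called higher, where 4.73% of all features were called higher, and none was called lower, where 4.6% were (edgeR quasi-likelihood test, all 6 libraries in 1 fit). MKK2 had a fitted log2 fold change of 5.62 (SE 1.36) with an adjusted p of 0.0423 by edgeR, on 4 and 4 reads against 0 and 0. With the controls set at a floor of 3 reads per library, the mean MKK2 level after potassium starvation was 1.26 times that floor. Counting error is not in that value, and reads this few do not establish a rise. The call was lost with DESeq2 (adjusted p = 0.0672), with library size alone, without the filter on low counts, with limma on TPM, and when any 1 of the 6 libraries was left out (adjusted p 0.0591 to 0.165 by edgeR).

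At an unadjusted p under 0.05 there were 3 features, and DESeq2 called none. COG1 was at a log2 fold change of 1.14 (SE 0.50, unadjusted p = 0.0482, adjusted p = 0.189, edgeR) with 42 and 13 reads after potassium starvation against 16 and 6 in control cells; its normalized counts were 43.14 and 20.74 against 20.07 and 8.93, which do not overlap but lie close at their edge. DGR2 was at -1.13 (SE 0.46, unadjusted p = 0.0364, adjusted p = 0.16, edgeR), with 6 and 5 reads after potassium starvation against 9 and 13 in control cells, and did not pass the adjustment. CTF13 was at 1.20 (SE 0.71, adjusted p = 0.322, edgeR), and became a called feature, at 1.86 with an adjusted p of 0.0249, only when the second potassium library was left out. The median over the 42 was 0.30, beside 0.01 over all features tested; 24 of 42 lay above 0, and the median SE was 0.92. Fitted values of the 5 features with 0 reads in both controls rest on few or no reads. With MKK2 set at its lower bound and the others of those 5, which have no bound, set at 0, the median was 0.04. With 1 library left out the median ran from -0.09, without the first potassium library, to 0.61, without the first control library, and was 0.54 without the second potassium library. With so few reads, the fit leaves wide error on each feature, and a missed call does not show that a feature was alike in potassium-starved and control cells.

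The potassium libraries differed from each other in these features: 273 reads against 98, with normalized medians of 3.6 and 1.6. The control libraries had medians of 2.51 and 2.23, between the potassium libraries. Within each group, the chi-square per degree of freedom was taken over the features that reached a minimum of summed reads in that group. It was 6.27 for nitrogen starvation, 20.07 for potassium starvation and 5.59 for control cells, so replicates differed by more than counting noise in each group and most in the potassium libraries.

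The 2 nitrogen libraries were set side by side for the 42 features, which the rule chose on the lower of the 2 values. The absolute log2 ratio between the libraries had a median of 0.33 (quartiles 0.2 and 0.68, range 0 to 1.62). For 439 other long features with both nitrogen values at 20 or more, the median was 0.3 (quartiles 0.13 and 0.49, range 0 to 1.58). The quartiles were thus higher for the 42. There were 18 features higher in the first library, 24 higher in the second, with ALK1 nearly equal. HIP1 leaned to the first library, at 2.73 times, while NMT1 (0.32 times) and HXT7 (0.35 times) leaned to the second. The HXT7 value depends on how reads were split with HXT6, which had 134 and 0 estimated reads in these libraries.

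**Figure D3:**
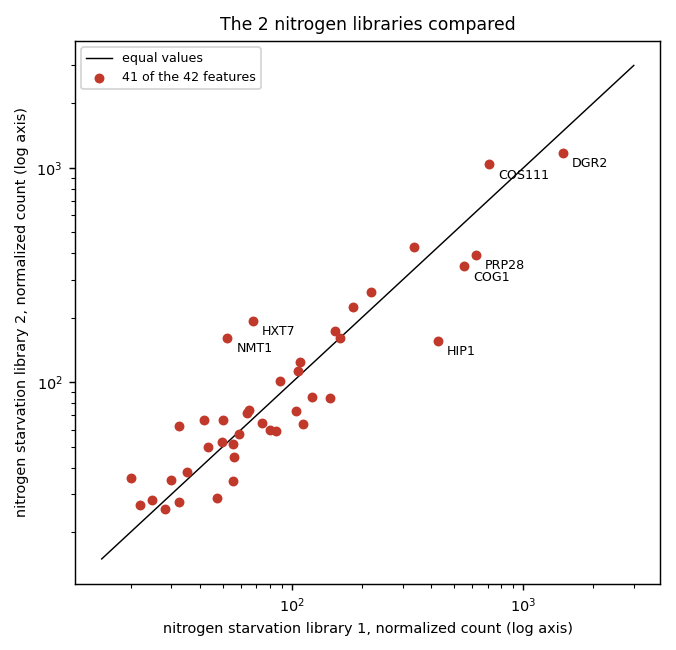
DESeq2-normalized count of 41 of the 42 features in the first (x) and second (y) nitrogen library, both on log axes, with the line of equal values. Most points follow the line. HIP1 lies furthest below it, and NMT1 and HXT7 lie furthest above it. The place of HXT7 depends on how reads were split with HXT6.

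**Figure D4:**
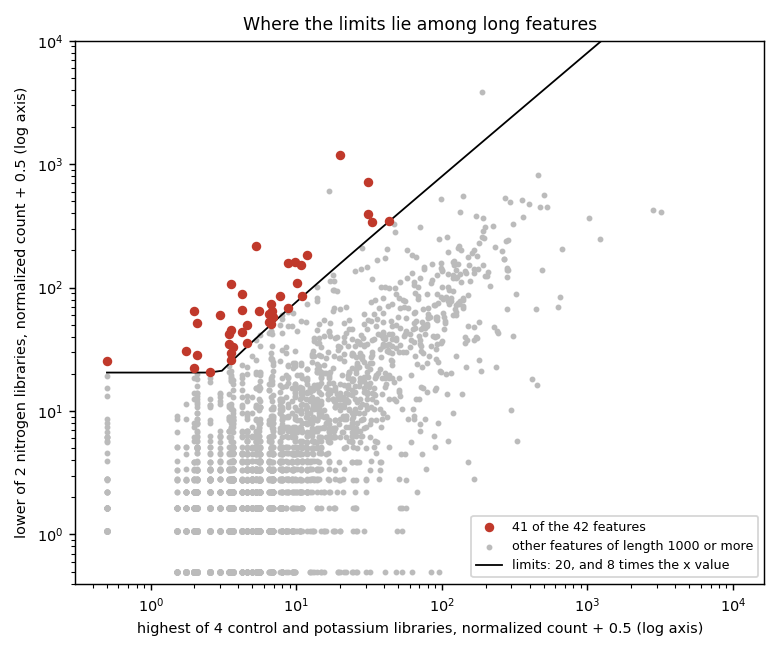
Lower of the 2 nitrogen libraries (y) against the highest of the 4 potassium and control libraries (x), each normalized count + 0.5 on log axes, for 41 of the 42 features (red) and other features of at least 1000 bases (grey). The line marks the limits of 20 and of 8 times, and the 2 grey points above it are PRR2 and SNX41, which are left out by name.

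The limits cut through a continuous range. COG1 and MKS1 were just inside the ratio at 8.04 and 8.1, and AKL1 and PDS1 just outside it at 7.97 and 7.95. PRP45 and THR1 were just inside the minimum at 20.18 and 21.91 normalized counts, and COX10 and POG1 just outside it at 19.6 and 18.7. CRC1 and DIM1 missed the length by little, at 984 and 957 bases. The ratio ran to 60.8, with a median of 12.7.

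Length, base composition and position were compared with those of other long features. The 42 had a median length of 1761 bases, against 1713 for other long features, and a median GC content of 39.0% against 39.4%. They lay on 15 chromosomes, with 8 on chromosome IV, and 21 on each strand. The next gene downstream faced the feature, end to end, for 18 of 42 (42.9%), with a median gap of 218 bases, against 52.3% and 224 bases in other long features. The upstream neighbour pointed away for 20 of 42 (47.6%), against 48.9%. None of these differences was tested.

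Some of the leading features end close to a gene that faces them: CTF13 is 23 bases from SNO1, a gene of vitamin B metabolism, and PRP28 is 61 bases from AMD2, a putative amidase gene. SNO1 had 84 and 58 reads after nitrogen starvation, 39 and 40 after potassium starvation, and 68 and 72 in control cells. AMD2 had 67 and 73 reads after nitrogen starvation, 73 and 47 after potassium starvation, and 103 and 116 in control cells. Both were called lower after nitrogen starvation, SNO1 at a log2 fold change of -1.48 (SE 0.34) and AMD2 at -2.14 (SE 0.26) (edgeR, adjusted p = 0.00732 and 0.000303), but with library size alone SNO1 was at 0.27 and AMD2 at -0.41, and neither was called (edgeR, adjusted p = 0.591 and 0.389). DGR2 and COG1 are followed by OAC1 and SDT1 on the same strand, at 643 and 254 bases, and HIP1 faces TDH3 across 580 bases. Of 84 neighbours of the 42, 23 were tested; 11 were called higher (background 25.8%) and 4 lower (background 20.4%) after nitrogen starvation (edgeR, Benjamini-Hochberg over all 2325 features). With library size alone, where 62.7% of all features were called higher and 4.95% lower, these 11 stayed called and these 4 did not.

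Neighbours with many reads that moved the same way as the feature beside them, picked after their values were seen, included OSW2, PGM1, YSC83 and UBC11. OSW2, a spore wall gene that follows SPT8 on the same strand, had 355 and 435 reads after nitrogen starvation, 35 and 26 after potassium starvation, and 10 and 12 in control cells. PGM1, a phosphoglucomutase gene before YPK1 on the same strand, had 523 and 354 reads after nitrogen starvation, 32 and 36 after potassium starvation, and 24 and 17 in control cells. YSC83, which lies before YSC84 on the other strand, had 152 and 96 reads after nitrogen starvation, 10 and 1 after potassium starvation, and 12 and 5 in control cells. All 3 were called higher after nitrogen starvation, as was UBC11, a gene related to ubiquitin-conjugating enzymes that faces YOR338W, with 142 and 93 reads after nitrogen starvation, 25 and 13 after potassium starvation, and 7 and 5 in control cells (edgeR).

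**Figure D5:**
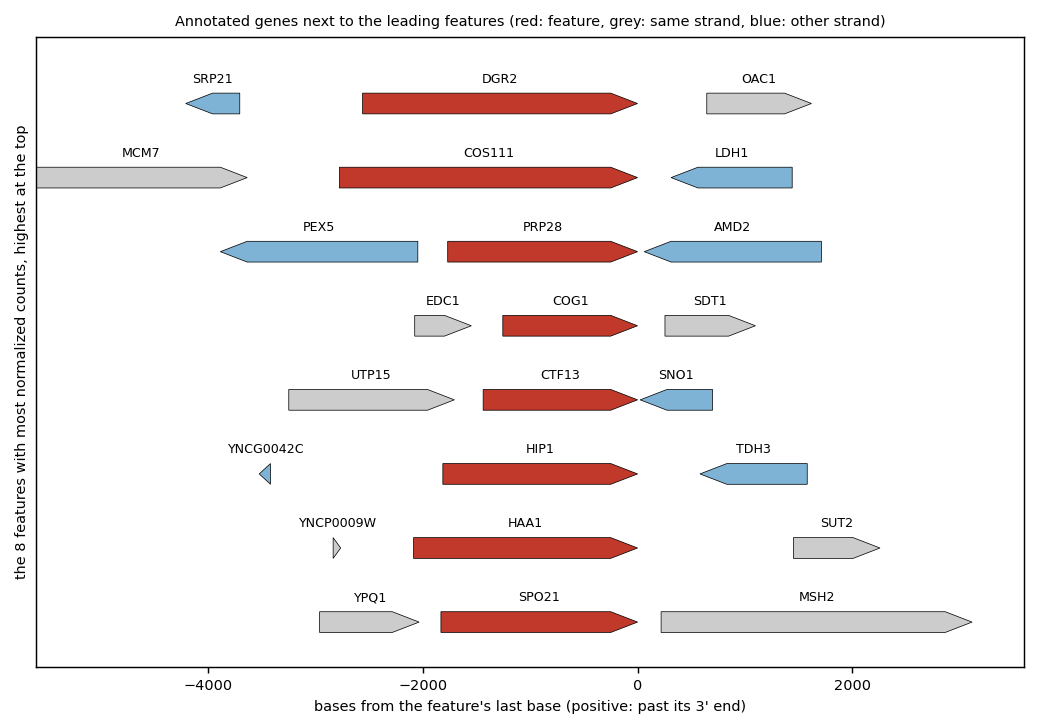
Annotated genes next to the 8 features with the highest normalized counts, drawn to scale with every feature (red) pointing right and bases counted from its last base on the x axis. CTF13 and PRP28 have a gene on the other strand (blue) within 23 and 61 bases of their end, while DGR2, COG1, HAA1 and SPO21 are followed by a gene on the same strand (grey); MCM7 is cut by the frame.

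Lists of genes for the pathways around these features were counted by reads under their own names in the same fit, for nitrogen starvation against control cells; the counts include those of the 42 that a list holds. The median over all features tested was 0.28, and 25.8% were called higher and 20.4% lower. Of the nitrogen transport list, which holds HIP1, 17 of 23 genes were tested, 4 were higher and 3 lower, with a median log2 fold change of -0.31. Of the list for the cell wall integrity MAP kinase pathway, which holds MKK2, 6 were tested, 4 were higher and 1 lower, with a median of 2.55. Of the amino acid synthesis list, which holds THR1, 15 were tested, 7 were higher and 2 lower, with a median of 2.61. Of the vesicle traffic list, which holds SEC24, 4 were tested and 1 was higher, with a median of 0.86.

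Lists with none of the 42 gave 3 higher and 3 lower of 10 for nitrogen catabolism, 2 and 1 of 6 for nitrogen regulators, 2 and 1 of 11 for autophagy, and 7 and 0 of 20 for meiosis and sporulation. The lists are partial: SPO21, which sporulating cells need, is not on the list for meiosis and sporulation. A list without any of the 42 therefore does not show that the 42 lack genes of that role. Of lists made for roles seen among the 42, a list of small-subunit assembly factors and a list of spliceosome proteins, both chosen after the values were seen, gave 8 higher and 1 lower of 13 and 7 higher and 2 lower of 16. Those lists hold UTP4, UTP5 and NOC4, and PRP28, PRP42 and PRP45, which the rule itself makes higher. These counts move with the scaling: with library size alone, where 62.7% of all features were called higher, 4.95% lower and the median over all was 2.00, the nitrogen transport list had 8 higher and 0 lower and its median was 1.41, the autophagy list had 9 higher and 0 lower, the cell wall integrity list 5 and 0, and the amino acid synthesis list 12 and 1. Under potassium starvation against control cells, where 4.73% of all features were called higher and 4.6% lower, the nitrogen transport list had 3 higher and 0 lower, the nitrogen catabolism list 0 higher and 2 lower, the lists for meiosis, cell wall integrity and amino acid synthesis 1 higher each, and the small-subunit list 1 lower. The call on the cell wall integrity list is MKK2 itself, whose few reads do not establish a rise.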

How the data were processed

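Per the labels' protocols, total RNA was made into libraries with the KAPA mRNA HyperPrep kit, which keeps strand, 2 per group. Per the submitters' processing notes, STAR 2.7.3a, DESeq2 and build R64 were used; no source used here gives the version of the counting program or how it treated strand. The authors deposited for each library estimated counts and TPM for 7127 features, and a table of DESeq2-normalized values (a signal: rounded estimated counts divided by 1 size factor per library). Whole reads were recovered from that deposited table for 100% of values (tolerance 0.001 reads), and they equal the rounded estimated counts.

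Estimated counts were rounded and fitted with edgeR 4.0.16 in R 4.3.3 (TMM, filterByExpr, quasi-likelihood, Benjamini-Hochberg at 0.05) over all 6 libraries in 3 groups, leaving 3 residual degrees of freedom. DESeq2 1.42.0, limma 3.58.1 on log2(TPM + 1), other scalings, no filter, a replicate block and leaving out each library were alternatives. The fit was tested on simulated data. Features absent from the annotation were placed by open reading frame search in the RefSeq genome: 585 of 683 had 1 place. Of 5628 annotated features used to check the search, 5459 were placed once at their own start and 4 elsewhere.

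Replicate numbers equal the labelled batch, which pairs the libraries; the correlation of replicate differences over 2325 features was 0 for nitrogen starvation and control, 0 for potassium starvation and control, and 0.06 for nitrogen and potassium starvation. The features and gene lists were chosen with earlier results of these data known. Of the 42, 41 are named and 1 is not reported here, although it stays in the counts and medians; values in every library are given for the 12 with the highest nitrogen mean, those on a gene list and any called under potassium starvation, and for some others chosen after their values were seen; the rest by range. Folds with no reads in the lower group use a floor of 3 reads per library, and compare means over libraries without counting error.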

Additional observations from a re-analysis of the deposited data

How the results depend on the processing

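The set of 42 kept all of its features under CPM by library size (150 features), CPM by TMM and TPM ratios (115). It also did so with a ratio of 4 (93), and shrank to 15 with a ratio of 16. A ratio of 4 must keep every feature, and CPM by library size and TPM raise nitrogen values against the other groups. Keeping all 42 there is no test of the set. Leaving out 1 library, which can only add features, gave 45 to 71, the highest without the first nitrogen library. For nitrogen starvation against control cells, 1075 features were called, against 1683 with limma on TPM (1589 higher, 94 lower). For potassium starvation against control cells 217 were called (110 higher, 107 lower), against 111 with library size alone (70 higher, 41 lower), 22 with limma on TPM (17 higher, 5 lower) and 99 to 255 with 1 library left out: 142 without the first control library, 116 without the second and 99 without the first potassium library. For nitrogen against potassium starvation 992 were called, split 542 higher to 450 lower, against 1209 to 97 with library size alone and 1383 to 71 with limma on TPM.

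The number of the 42 called under potassium starvation was 1, and 0 with DESeq2, with library size alone, without the filter and with limma on TPM; with only the groups compared in the fit, 3 of the 42 were tested and 0 called; it was 0 to 1 with 1 library left out. Their median log2 fold change against control cells was 6.41 with library size alone and 4.41 with limma on TPM after nitrogen starvation, and 0.64 with library size alone after potassium starvation; nitrogen against potassium starvation it was 5.84 with library size alone. The cause of these changes was not tested. With the replicate block, 1043, 231 and 967 features were called in the 3 comparisons, 1 of the 42 was called under potassium starvation, and no call among the 42 changed. Of the 42, 36 had no more than 10 reads in any library outside nitrogen starvation, which limits every ratio.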
